A study of Homo sapiens with 6 samples.

Results

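The data described here are the transcriptomes of untreated DU145 cells, a human prostate cancer (PCa) cell line that was first grown from a metastasis in the brain. The libraries were taken by their label as controls and are the 3 control libraries of a series of 6, each made from cells kept in medium for 48 h before total RNA was extracted and turned into an mRNA library. The other 3 libraries of the series came from cells given taraxasterol, a plant triterpene, and they were not analysed here. The line was cultured in MEM with fetal bovine serum and antibiotics, the labels do not say whether the control cells received a solvent, no genetic change was introduced, and the labels number the controls 1, 2 and 3 without saying whether they came from separate cultures, so the spread below may be partly technical. All 3 libraries come from 1 line, and what holds in them is not shown to hold in other PCa cells.

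Prostate epithelium is made of luminal cells, which depend on androgen and secrete prostate-specific antigen, of basal cells, which rest on the basement membrane and carry TP63 and the keratins KRT5 and KRT14, and of rare neuroendocrine cells with secretory granules. Most prostate tumours keep the luminal program, whereas DU145 is one of the lines known to grow without androgen. The line has long served for work on growth factor receptors, cell adhesion and invasion.

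Expression values were taken as FPKM, a unit inferred from the values, which is fragments of a transcript scaled by its length and by the size of the library, a level per length that can be compared between genes. The 3 values set side by side below are those of control replicates 1, 2 and 3 in that order, and values with ± are the mean and SD of the 3 libraries. A gene was counted as expressed at 1 FPKM or more in each library, as high at 10 FPKM or more in each, as very high at 100 FPKM or more in each, and as below detection at under 0.1 FPKM in each. A gene at exactly 0 is said to be listed at 0, since such a value can be a failed estimate. The read depth is unknown, so no counting error can be given. No comparison between groups was made and no test was run, and 2 genes are said to be separated only where their 3 values do not overlap. Genes whose values overlap can still keep the same order in each library.

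The table listed 23062 identifiers in each library, of which 19932 were gene names and 3130 were loci assembled without a name. Of the names, 19359 were protein-coding genes of GENCODE 29, so non-coding RNA was hardly covered. Untreated DU145 cells expressed 11374 of the 19932 named genes (57.1%), with 5525 high and 415 very high. The share of 57.1% is the one against which counts of expressed genes in the lists below are to be read. A further 5578 names (28%) were below detection, 3145 of them listed at 0 in all 3 libraries, and 2980 lay in between. Among expressed genes the median level was 10.7 FPKM, with quartiles of 4.69 and 23.5 FPKM. The expressed genes together held 98.5% ± 0.0404 of the summed FPKM, and the 415 very high genes alone held 44.7% ± 1.5. Of the assembled loci, 618 were expressed and 47 were high.

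**Figure D1:**
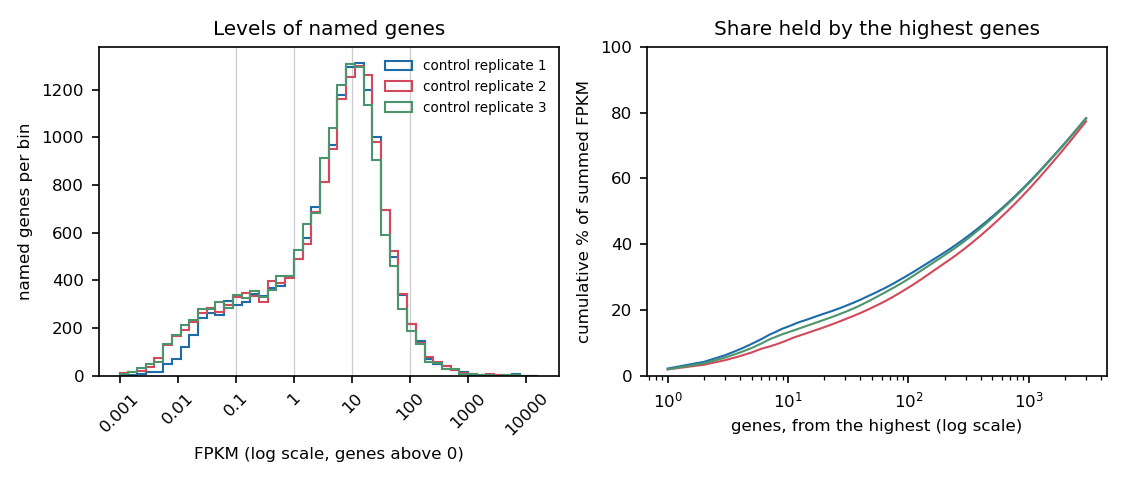
Left, number of named genes (y axis) by FPKM on a log scale (x axis) in control replicates 1 (blue), 2 (red) and 3 (green), genes at 0 left out, with grey lines at 0.1, 1, 10 and 100 FPKM; right, the cumulative percent of each library's summed FPKM (y axis) held by the highest genes (x axis, log scale). The main peak lies near 10 FPKM with a shoulder below 1 FPKM in each library, and the 100 highest genes reach 30.6, 26.8 and 29.4% of the sum.

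The top of the distribution was held by the genes of the mitochondrial genome and by the translation and glycolysis machinery. Cytochrome c oxidase subunit 1, MT-CO1, was the highest gene by its mean, at 7922, 6718 and 5798 FPKM, and 11 of the 20 highest genes were of the mitochondrial genome. The others in the top 20 were the glycolytic enzymes GAPDH at 2107 ± 298 FPKM, PKM at 1309 ± 159.6 FPKM and ENO1 at 1302 ± 185 FPKM, the iron storage chains FTH1 at 2084 ± 346 FPKM and FTL at 1217 ± 159.8 FPKM, the elongation factor EEF1A1 at 1428 ± 184 FPKM, cytoplasmic actin ACTB at 1006 ± 206 FPKM and the ribosomal proteins RPS2 and RPLP0 at 932 ± 119 FPKM and 932 ± 80.6 FPKM. The other mitochondrial genes among them were MT-CO3, MT-ND4, MT-ND4L, MT-CO2, MT-ATP8, MT-ATP6, MT-ND2, MT-CYB, MT-ND1 and MT-ND5, with mean levels of 1235 to 6027 FPKM. Several of these overlap on the mitochondrial genome (MT-ATP8 with MT-ATP6, MT-ND4L with MT-ND4), so their split depends on the assignment of reads. The mitochondrial genes took 15.8, 11.2 and 14.2% of the summed FPKM, highest in control replicate 1, and the 85 cytosolic ribosomal protein genes 6.66, 7.15 and 7.83%, highest in control replicate 3. Among the other high genes were TXNRD1, a thioredoxin reductase, at 808 ± 82.7 FPKM and the ubiquitin hydrolase UCHL1 at 627 ± 81.8 FPKM, both named after their values were seen.

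The 14 reference genes often used to scale expression were all expressed, from GAPDH down to the general transcription factor TBP at 8.06 ± 0.494 FPKM. The next levels were those of ACTB and RPLP0, then the MHC light chain B2M at 718 ± 16.3 FPKM, the isomerase PPIA at 613 ± 78.2 FPKM, and the adaptor YWHAZ at 445 ± 37.9 FPKM. Phosphoglycerate kinase PGK1 stood at 139 ± 20.6 FPKM, the transferrin receptor TFRC at 74.1 ± 4.56 FPKM, succinate dehydrogenase SDHA at 70.05 ± 6.67 FPKM, HPRT1 of purine salvage at 38.6 ± 1.26 FPKM and beta-glucuronidase GUSB at 26.7 ± 2.89 FPKM. B2M varied least among the 8 of them above 100 FPKM, with a CV of 2.27%, against 20.5% for ACTB and 14.1% for GAPDH.

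The spread between libraries was small for most genes. Over the 11374 expressed genes the median coefficient of variation (CV, the SD as a percent of the mean) was 9.68%, with quartiles of 6.54 and 13.4%. It changed little with level, from 11.2% for means of 1 to 2 FPKM to 9.16% for 50 to 100 FPKM. Without control replicate 3, whose summed FPKM of 322483 was below the 363724 and 349476 of the others and in which only 7.91% of expressed genes had their highest value, the median CV was 5.49%. Pearson's r of log2(FPKM + 1) across all identifiers was 0.996 to 0.997 between pairs of libraries, a description across genes that are not independent replicates, and no pair held identical values above 0.

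Luminal prostate genes were only in part expressed. The secreted proteases KLK3 (prostate-specific antigen, chr19:50854915-50860764, GRCh38) and KLK2, the serine protease TMPRSS2 and the prostate homeobox gene HOXB13 (chr17:48724763-48729178) were each listed at 0 in all 3 libraries, as was FOLH1, the prostate-specific membrane antigen. The pioneer factor FOXA1 (chr14:37589984-37596059) was however high, at 16.6, 16.9 and 14.2 FPKM. Of the 7 defining luminal markers 2, FOXA1 among them, were expressed and 5 were listed at 0. Across the whole luminal list 8 of 23 genes were expressed (34.8%, against 57.1% of all named genes). The highest was the cochaperone FKBP5 at 31.5 ± 1.92 FPKM, which the glucocorticoid receptor also induces, and FOXA1 came next. The racemase AMACR was at 6.47 ± 0.549 FPKM, a level that is uncertain because a read-through gene overlaps it. Lower levels were found for PMEPA1 at 4.84 ± 0.554 FPKM, the metalloreductase STEAP2 at 4.1 ± 0.193 FPKM, GATA2 at 2.9 ± 0.0362 FPKM and SLC45A3 at 1.79 ± 0.139 FPKM. The remaining secretory genes MSMB, ACP3, KLK4 and the channel TRPM8 were below detection.

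The promoters of KLK3 and FOXA1 are shown as one gene that was listed at 0 and one that was high, with each CG dinucleotide, the site of DNA methylation in mammals, in capitals. Both are RefSeq windows of GRCh38.p14 that run from 250 bases before the transcription start to 50 bases after it, written 5′ to 3′ on the gene's strand, with KLK3 at chr19:50854665-50854964 (plus strand) and FOXA1 at chr14:37595200-37595499 (minus strand).
KLK3: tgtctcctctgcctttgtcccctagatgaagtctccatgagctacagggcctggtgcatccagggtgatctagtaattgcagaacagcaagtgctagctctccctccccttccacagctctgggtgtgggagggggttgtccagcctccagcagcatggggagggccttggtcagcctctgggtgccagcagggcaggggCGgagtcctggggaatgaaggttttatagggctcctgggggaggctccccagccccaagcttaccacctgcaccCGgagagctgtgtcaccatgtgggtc
FOXA1: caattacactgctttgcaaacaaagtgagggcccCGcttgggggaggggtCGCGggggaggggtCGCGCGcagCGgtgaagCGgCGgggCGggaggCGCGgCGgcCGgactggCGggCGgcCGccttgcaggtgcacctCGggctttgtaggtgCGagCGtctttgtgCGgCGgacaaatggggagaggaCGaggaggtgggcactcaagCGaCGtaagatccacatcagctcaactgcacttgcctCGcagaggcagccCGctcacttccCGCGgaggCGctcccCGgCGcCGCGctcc
The KLK3 window held 2 CG dinucleotides and the FOXA1 window 34. The sequence TATAAA, the core of the TATA box, was found once in the KLK3 window on either strand and not in that of FOXA1.

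Expressed and undetected genes differed in the same direction across the table, given here as a description without a test. Of 10970 protein-coding genes with a single RefSeq window, those expressed had a median of 28 CG dinucleotides (quartiles 21 and 35) and those below detection 5 (quartiles 2 and 16). Where the window held fewer than 5, 132 of 1842 genes (7.17%) were expressed, and the share was 18.1% at 5 to 9, 56.9% at 10 to 19, 78.7% at 20 to 29 and 81.1% at 30 or more. TATAAA on either strand was present in 4.56% of windows of expressed genes, in 21.6% of those below detection and in 12.9% of the 217 very high genes. Over all 10970 genes the share was 10.2%, and over a wider set of 22114 single windows it was 12.7%. GGGCGG, the core bound by SP1-type factors, was present on either strand in 75% of the expressed and 30.7% of those below detection. Over all 10970 genes its share was 60%, and over the wider set of single windows 43%. CCAAT showed no such gap, with 37.9 and 37.9%. Marker genes did not all follow the rule of the majority, since CD68 was at 23.4 ± 3.34 FPKM with 2 CG dinucleotides in its window and NEUROD1 was listed at 0 with 31. Further exceptions were found on both sides. CLDN4 and COL17A1, both expressed, held 5 and 1, and CHGA and SOX2, both below detection, held 24 and 20. The pair KLK3 and FOXA1 shown above is among the marker genes that followed the rule.

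Basal genes were split, with 1 of 5 defining markers expressed but 11 of 18 genes over the whole list. The basal regulator TP63 and KRT5 (chr12:52514575-52520687) were listed at 0 in all 3 libraries, and KRT14 was at 0.00536 ± 0.00929 FPKM, below detection. The hyaluronan receptor CD44, the remaining defining basal marker that was expressed, was at 46.9, 45.7 and 38.3 FPKM, and the nerve growth factor receptor NGFR was at 0.259, 0.515 and 0.229 FPKM, under 1 FPKM in each library. By contrast, the laminin chains LAMB3 at 133, 148 and 106 FPKM and LAMA3 at 21.7 ± 3.15 FPKM, parts of a basement membrane protein that basal cells secrete, were high. The laminin receptor chain ITGA6 was at 35 ± 1.22 FPKM and its partner ITGB4 at 6.4 ± 0.959 FPKM, the hemidesmosome linker DST at 56.2 ± 4.96 FPKM and COL17A1 at 2.0 ± 0.263 FPKM. The basal zinc finger gene BNC1 was at 14.5 ± 2.17 FPKM and the basal keratin KRT15 at 2.8, 1.68 and 1.46 FPKM, whereas KRT17 and the desmosomal cadherin DSG3 were below detection. The 11 of 18 genes expressed make 61.1% of the list, near the 57.1% over all named genes.

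Few neuroendocrine genes were expressed, and the highest are not limited to that cell type. UCHL1 (chr4:41256413-41268455), a neuronal ubiquitin hydrolase, was the highest of the list at 682, 667 and 533 FPKM and made up 87.8% ± 0.614 of its summed FPKM. The neuronal enolase ENO2 was at 45.3, 55.6 and 35.4 FPKM and the retrotransposon-derived gene PEG10 at 33 ± 2.47 FPKM. The granule protein CHGA and the lineage factors INSM1 and SOX2 were below detection, at 0.00403 to 0.0452 FPKM, while NEUROD1, CHGB and the splicing factor SRRM4 were listed at 0. Synaptophysin (SYP) at 0.518, 0.201 and 0.356 FPKM stayed under 1 FPKM in each library, and the adhesion molecule NCAM1 at 1.11, 1.52 and 0.824 FPKM straddled that level. Of 7 defining neuroendocrine markers 1, ENO2, was expressed, and of the whole list 5 of 21, the others being UCHL1, PEG10 and the synaptic genes SYT1 at 3.34 ± 0.338 FPKM and SNAP25 at 1.9 ± 0.478 FPKM.

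Most listed epithelial genes and a smaller part of the mesenchymal genes were expressed side by side. E-cadherin (CDH1) was at 54.9, 66.8 and 40.7 FPKM, EPCAM at 63, 57.8 and 55 FPKM and claudin 1 (CLDN1) at 49.7, 63 and 42.3 FPKM, and the values of the 3 overlapped. P-cadherin (CDH3) was at 36.7 ± 5.75 FPKM, and its values overlapped those of CDH1. Of the epithelial list 24 of 29 genes were expressed (82.8%, against 57.1% of all named genes). The exceptions were the epithelial regulators GRHL2, listed at 0, OVOL1 and EHF, both below detection, OVOL2 at 0.399 ± 0.0594 FPKM and RAB25 at 0.0236 ± 0.0409 FPKM. The splicing regulators ESRP1 and ESRP2 were at 2.2 ± 0.339 FPKM and 7.04 ± 0.989 FPKM, and CLDN7 was at 3.37 ± 0.771 FPKM.

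Vimentin (VIM, chr10:17228259-17237593), the intermediate filament of mesenchymal cells, was at 479, 449 and 373 FPKM, above CDH1 in each library. Tenascin C (TNC) was at 56.5 ± 8.47 FPKM, the matrix protein TGFBI at 42.3 ± 5.51 FPKM and the collagen crosslinker LOX at 10.2 ± 2.53 FPKM. The repressors of CDH1 were low, with ZEB1 at 4.74, 4.12 and 3.65 FPKM, SNAI1 at 2.18, 1.52 and 1.3 FPKM and SNAI2 at 1.07, 1.78 and 0.978 FPKM. ZEB2 was at 0.362 ± 0.121 FPKM, and TWIST1 and N-cadherin (CDH2) were listed at 0. Fibronectin (FN1) was at 4.07 ± 0.703 FPKM and TWIST2 at 4.47 ± 1.04 FPKM. Of 8 defining mesenchymal markers 4 were expressed. Of 22 mesenchymal genes 9 were expressed (40.9%, against 57.1% of all named genes) and 10 were below detection, among them SPARC, FAP, POSTN and MMP2. VIM alone made up 76.8% ± 0.483 of the summed FPKM of that list.

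**Figure D2:**
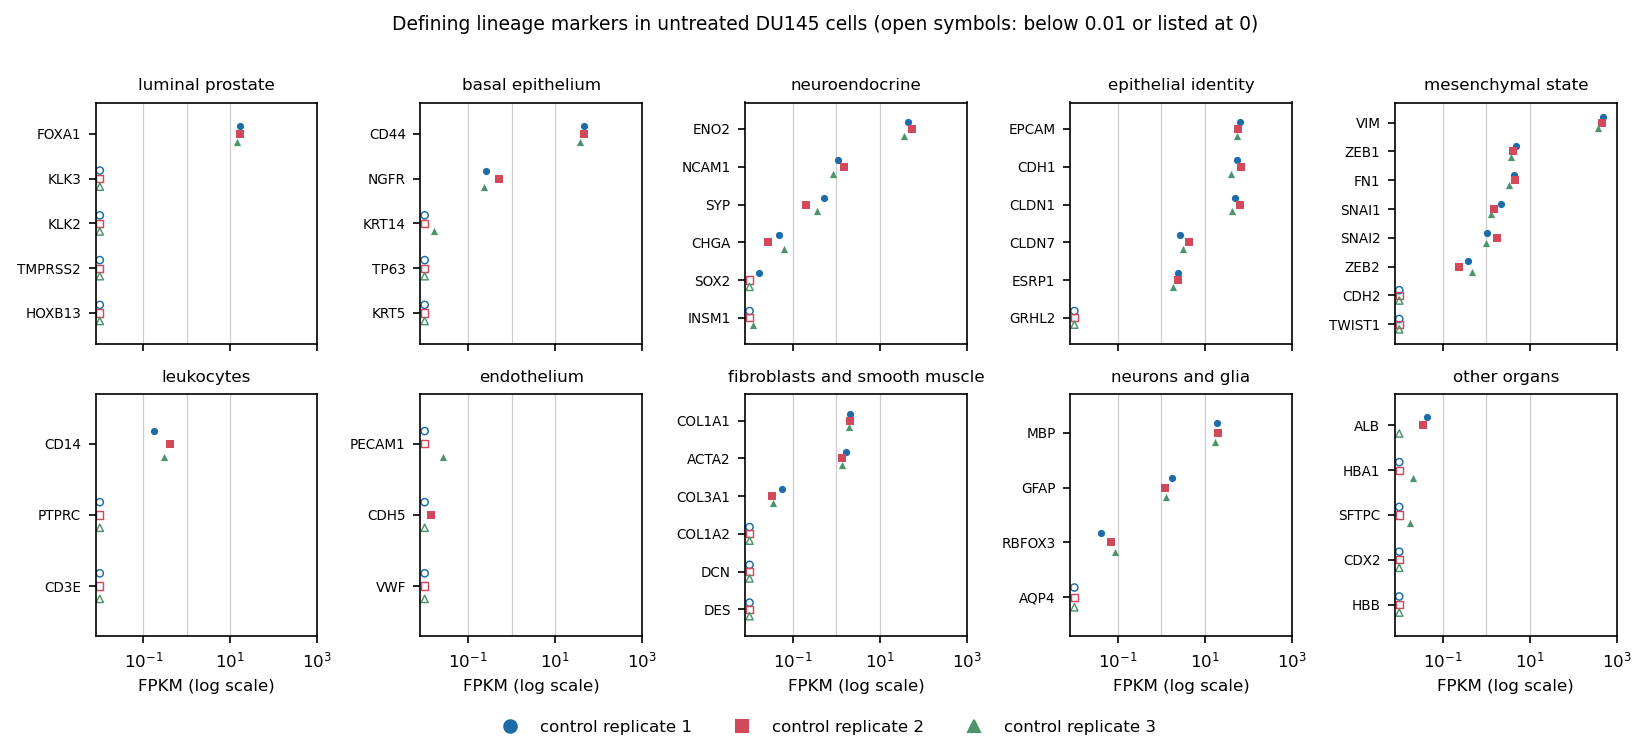
FPKM on a log scale (x axis) of defining markers of 10 lineages (y axis, by mean level) in control replicates 1 (circles), 2 (squares) and 3 (triangles); open symbols at the left edge are values under 0.01 FPKM or listed at 0, and grey lines mark 0.1, 1 and 10 FPKM. Luminal FOXA1, basal CD44, neuroendocrine ENO2, the epithelial genes other than GRHL2 and mesenchymal VIM lie to the right, whereas KLK3, TP63, KRT5, CDH2 and TWIST1 lie at the left edge.

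Markers of cell types that an established line should not hold were mostly below detection, except those of neurons and glia. Of 67 such markers 11 were expressed and 47 were below detection. The leukocyte genes PTPRC and CD3E were below detection or listed at 0, and CD68, a lysosomal protein that many cells make, was the 1 leukocyte-list gene that was expressed, at 23.4 ± 3.34 FPKM. None of the 11 endothelial genes was expressed, with PECAM1, CDH5 and VWF below detection and ESAM highest at 1.07, 0.947 and 1.22 FPKM. Without control replicate 2, ESAM would have counted as expressed. The fibroblast genes COL1A2, DCN and DES were listed at 0, while 3 of 14 genes of that list were expressed, among them COL1A1 at 2.0 ± 0.0947 FPKM and the actin ACTA2 at 1.44 ± 0.153 FPKM. Of the neural list 6 of 12 genes were expressed. The beta-tubulin TUBB3 at 85.6 ± 6.87 FPKM and the myelin protein gene MBP at 19.1, 20.2 and 16.8 FPKM were high, 4 more of the list, GFAP at 1.42 ± 0.272 FPKM among them, were expressed, and RBFOX3, AQP4 and OLIG2 were below detection.

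The 1 expressed marker of other organs was a lung and thyroid transcription factor. NKX2-1 (chr14:36516392-36521149, GRCh38) was at 52.9, 49.5 and 47.1 FPKM, about the level of CDH1, and ranked 1215 of 19932 named genes. The genes it is known to activate in lung and thyroid, SFTPC and TG, were below detection at 0.00582 ± 0.0101 FPKM and 0.0529 ± 0.0175 FPKM, and the thyroid and kidney factor PAX8 was at 0.399 ± 0.259 FPKM. The liver genes ALB and AFP, the haemoglobins HBA1 and HBB and the intestinal factor CDX2 were below detection. NKX2-1 lies on the same chromosome as FOXA1.

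Proliferation genes were all high. All 24 listed genes were at 10 FPKM or more in each library, with a median of 51.6 FPKM, against 10.7 FPKM over all expressed genes. Topoisomerase TOP2A led at 160.0, 158 and 149 FPKM, followed by thymidylate synthase TYMS at 103 ± 10.2 FPKM, cyclin B1 (CCNB1) at 93.7 ± 1.51 FPKM and the replication clamp PCNA at 88.2 ± 6.8 FPKM. MKI67, the gene of the Ki-67 antigen, was at 76.5, 61.9 and 58 FPKM. The CV of the listed genes ran from 1.07% for the survivin gene BIRC5 to 16.3% for MCM2, a subunit of the replication helicase.

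Among cell cycle regulators, the D-type cyclin CCND1 was the main one at 34.9 ± 0.933 FPKM, with CCND3 at 13.1 ± 1.35 FPKM and CCND2 below detection, and the E-type cyclins CCNE1 and CCNE2 were at 5.22 ± 0.36 FPKM and 6.31 ± 0.699 FPKM. The inhibitor gene CDKN2A (chr9:21967753-21995301), which encodes p16 and p14ARF, was very high at 140.0, 141 and 127 FPKM and held 66.2% ± 0.843 of the summed FPKM of the CDK inhibitors. CDKN1A (p21) at 26.7 ± 4.4 FPKM and CDKN1B (p27) at 18.3 ± 1.72 FPKM came next, then CDKN2C, CDKN2D and CDKN2B at 14.6 ± 1.74 FPKM, 5.47 ± 0.364 FPKM and 3.96 ± 0.276 FPKM, with CDKN1C at 0.44 ± 0.095 FPKM. The retinoblastoma family showed RBL2 at 18.5 ± 1.17 FPKM, RB1 at 15.7, 16.2 and 13.1 FPKM and RBL1 at 8.7 ± 0.264 FPKM, with no overlap between neighbours. All 30 tumour suppressor and repair genes were expressed, including the mismatch recognition gene MSH6 at 33.6 ± 3.51 FPKM and STK11 at 10.1 ± 0.349 FPKM. DU145 is known to carry an inactivating change in RB1, and a transcript level does not show whether a working protein is made. Of the oncogene list 12 of 15 were expressed, with CTNNB1 at 98.6 ± 13.7 FPKM, MYC at 30.7, 38.5 and 25.2 FPKM and ETV5 at 22.3 ± 2.25 FPKM. ERG, the ETS gene that prostate tumours often fuse to TMPRSS2, was at 0.025 ± 0.0217 FPKM, below detection, and ETV1 was listed at 0. Telomerase TERT was at 0.174 ± 0.0334 FPKM.

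Surface antigens that are used as drug targets were unevenly present. CD24, a small mucin-like antigen, was at 145, 153 and 119.7 FPKM. The complement regulator CD46 was at 118 ± 10.1 FPKM, B7-H3 (CD276) at 26.2 ± 3.41 FPKM, STEAP1 at 12.6 ± 1.14 FPKM, PSCA at 3.14 ± 0.909 FPKM and PD-L1 (CD274) at 2.61 ± 0.282 FPKM. FOLH1, CEACAM5 and PROM1 were listed at 0, and NECTIN4 was below detection.

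Receptor tyrosine kinases carry growth factor signals into the cell through the RAS and phosphoinositide 3-kinase (PI3K) pathways. Of 58 such genes 23 were expressed, 10 of them high, and 22 were below detection. AXL (chr19:41219203-41261766), the GAS6 receptor, was the highest at 130.4, 132 and 119.6 FPKM and held 30.5% of the summed FPKM of the class. MET, the receptor of hepatocyte growth factor, followed at 58.9, 55 and 50.6 FPKM, and EGFR at 38.6, 42.9 and 30.8 FPKM. These 3 were separated from each other in every library. Next were the ephrin receptor EPHA2 at 28.9 ± 4.73 FPKM and the collagen receptor DDR1 at 25.8 ± 2.89 FPKM, and EGFR overlapped EPHA2, which overlapped DDR1. Of the 22 neighbouring pairs in the order of expressed kinases 15 overlapped when the values of all libraries were pooled. By that rule steps were seen only after AXL, MET, DDR1, IGF1R, ROR1, PTK7 and TYRO3. Within each library, however, EGFR was above EPHA2, EPHA2 above DDR1 and RYK above EPHB4, whereas ERBB2 and FGFR1 changed order between libraries.

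Within the receptor families 1 member usually led. In the ERBB family EGFR made up 63.4% ± 2.11 of the sum, ahead of ERBB2 at 14.4 ± 1.79 FPKM and ERBB3 at 7.06 ± 0.504 FPKM, and ERBB4 was below detection. In the TAM family AXL made up 95.4% ± 0.298, with TYRO3 at 3.54 ± 0.459 FPKM and MERTK at 2.67 ± 0.31 FPKM. The MET relative MST1R was at 11.8 ± 1.67 FPKM. Of the insulin family IGF1R was at 10.03 ± 0.77 FPKM, the insulin receptor INSR at 2.03 ± 0.0886 FPKM and INSRR was below detection. Among EPHB receptors EPHB4 alone was expressed, at 16.2 ± 1.36 FPKM, with EPHB2, EPHB3 and EPHB6 at 0.866 ± 0.0638 FPKM, 0.821 ± 0.0623 FPKM and 0.698 ± 0.0684 FPKM and EPHB1 below detection. DDR2, the other member of the DDR family, was at 0.418 ± 0.133 FPKM. The VEGF receptor FLT4 was at 2.26 ± 0.122 FPKM, while KDR and FLT1 were below detection. None of the PDGF and KIT family was expressed, with KIT, PDGFRA and PDGFRB below detection and FLT3 and CSF1R at 0.155 ± 0.0208 FPKM and 0.107 ± 0.0138 FPKM, and the neurotrophin receptors NTRK2 and NTRK3 were below detection.

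The FGF receptors include FGFR2, which the study as a whole examined. FGFR1 was at 14.6, 15.5 and 12.2 FPKM and FGFR4 at 6.83, 7.34 and 6.19 FPKM, whereas FGFR3 was at 0.50, 0.469 and 0.462 FPKM and FGFR2 at 0.157, 0.62 and 0.248 FPKM. FGFR2 was therefore under 1 FPKM in each untreated library, and its value in control replicate 2 was above those of the others, with a CV of 71.8%. FGFRL1, a relative that lacks the kinase, was at 15.5, 13.6 and 12.4 FPKM and overlapped FGFR1. FGFR2 and FGFR3 overlapped as well, whereas FGFR1 and FGFR4 were separated. Of the FGF ligands 3 of 22 were expressed, and those were the intracellular FGF11 at 9.51 ± 1.26 FPKM and FGF12 at 2.68 ± 0.374 FPKM and the secreted FGF2 at 4.86 ± 0.226 FPKM. FGF7 and FGF10, which are known to activate the epithelial form of FGFR2, were at 0.0152 ± 0.00381 FPKM and listed at 0.

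**Figure D3:**
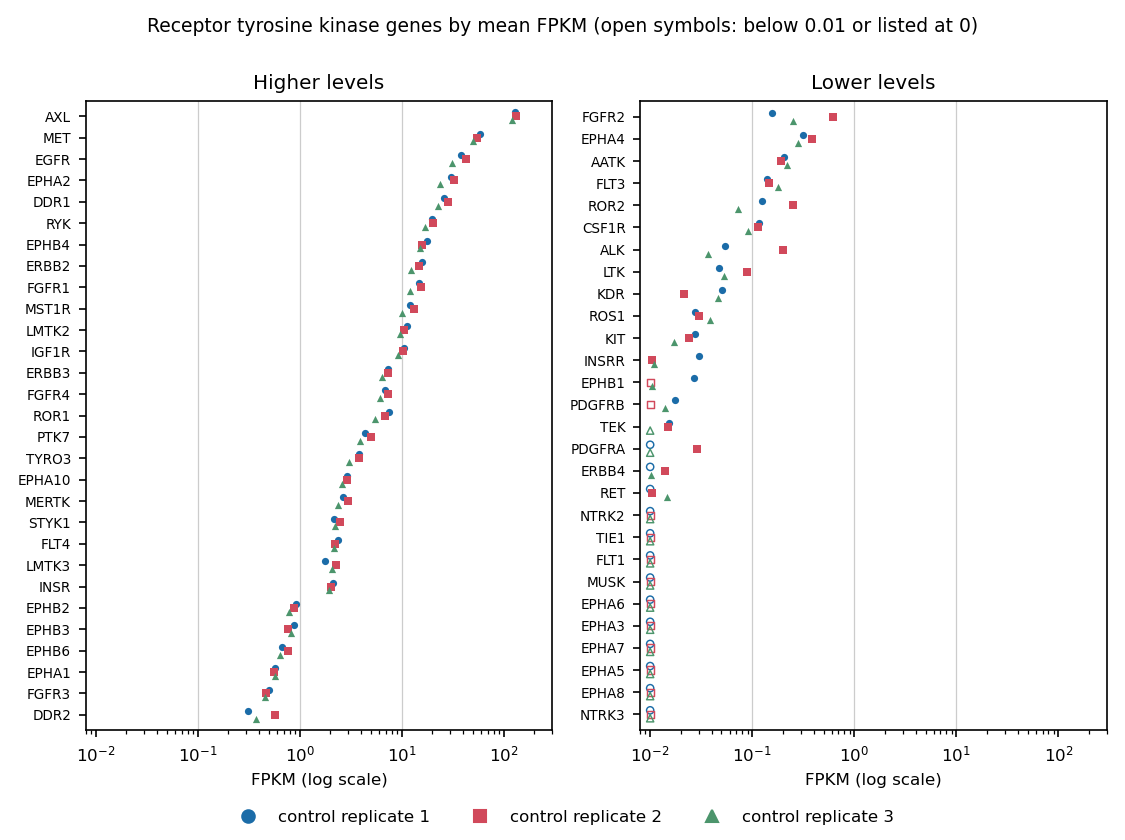
FPKM on a log scale (x axis) of 57 receptor tyrosine kinase genes (y axis, by mean level, 29 higher genes left and 28 lower genes right) in control replicates 1 (circles), 2 (squares) and 3 (triangles); open symbols are values under 0.01 FPKM or listed at 0 and grey lines mark 0.1, 1 and 10 FPKM. AXL and MET each stand clear at the top, and FGFR2 heads the right panel with its control replicate 2 value to the right of the others.

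In most kinase classes downstream of these receptors 1 isoform led. Among the class I PI3K catalytic chains PIK3CB (p110 beta) was at 17, 17.5 and 16 FPKM and PIK3CA (p110 alpha) at 7.58, 7.28 and 7.23 FPKM, so that PIK3CB made up 65.1% ± 0.931 of the sum. PIK3CD was at 1.64 ± 0.108 FPKM and PIK3CG was listed at 0. The regulatory chains PIK3R2, PIK3R3 and PIK3R1 were at 8.47, 3.99 and 6.69 FPKM, 4.29 ± 0.406 FPKM and 3.56 ± 0.189 FPKM, where PIK3R2 overlaps a read-through gene on the same strand and is uncertain. The AKT kinases AKT1 at 43.5, 39.98 and 35.2 FPKM and AKT2 at 32.3, 31.5 and 27.5 FPKM were high and separated. Of the SGK kinases SGK3 was at 3.85 ± 0.0973 FPKM, SGK1 at 2.85, 4.73 and 2.43 FPKM, highest in control replicate 2, and SGK2 at 1.1 ± 0.16 FPKM. All 6 RAS genes were expressed, among them RRAS2 at 24.9 ± 3.82 FPKM, NRAS at 24.7 ± 1.09 FPKM, HRAS at 15.8 ± 0.772 FPKM, RRAS at 13 ± 1.12 FPKM and MRAS at 5.18 ± 0.691 FPKM, where RRAS2 and NRAS overlapped. Of the RAF kinases ARAF at 11.8 ± 1.72 FPKM lay above BRAF at 7.75 ± 1.08 FPKM. Of the SRC family YES1 at 50.3 ± 4.59 FPKM and LYN at 32.3 ± 2.91 FPKM were high, SRC itself was at 5.65 ± 0.34 FPKM and FYN at 0.905 ± 0.195 FPKM, and LCK was listed at 0.

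Growth factors of the EGF family were expressed together with EGFR. Amphiregulin (AREG) was at 152, 173 and 146 FPKM, epiregulin (EREG) at 53.1, 59.5 and 38.8 FPKM, TGFA at 19.1 ± 1.87 FPKM and HBEGF at 10.2 ± 1.55 FPKM, and 7 of 11 ligands were expressed. EGF itself was at 0.607 ± 0.0343 FPKM, under 1 FPKM in each library. VEGFA, the angiogenic factor that hypoxia induces, was at 125, 178 and 92.6 FPKM and was highest in control replicate 2. It made up 80.8% ± 3.09 of its list, in which all 8 genes were expressed. HGF and INS were listed at 0 and IGF1 and IGF2 were below detection, so no listed ligand of MET or IGF1R was expressed. Of the TGF-beta family TGFB1 at 22.8 ± 2.79 FPKM, GDF11 at 5.26 ± 0.465 FPKM and TGFB2 at 2.81 ± 0.119 FPKM were expressed, and the receptors TGFBR2 and TGFBR1 were at 36.6 ± 4.68 FPKM and 14.6 ± 1.16 FPKM.

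Receptors of the interleukin 6 family were expressed in all but 1 case, with OSMR far above the others. The oncostatin M receptor OSMR (chr5:38845858-38945596) was at 275, 295 and 226 FPKM, above AXL in each library, and the shared chain IL6ST (gp130) was at 42.8, 45.2 and 36.9 FPKM. IL27RA, LIFR, IL11RA and IL6R followed at 28.5 ± 2.42 FPKM, 10.02 ± 0.267 FPKM, 9.72 ± 1.08 FPKM and 8.61 ± 0.557 FPKM, and CNTFR was below detection. The ligands LIF at 38.8 ± 6.05 FPKM, CLCF1 at 13.7 ± 1.34 FPKM, IL11 at 12.2 ± 0.722 FPKM, IL6 at 6.78 ± 0.978 FPKM and CNTF at 3.14 ± 0.371 FPKM were expressed, but OSM was at 0.13 ± 0.0446 FPKM. CNTF overlaps a read-through gene in the annotation and is uncertain, and the spans of IL11RA and CLCF1 also overlap other genes. Of the JAK kinases JAK1 at 27.2 ± 2.94 FPKM and TYK2 at 19.1 ± 2.45 FPKM were high, JAK2 was at 2.32 ± 0.246 FPKM and JAK3 at 0.624 ± 0.0761 FPKM. All 7 STAT genes were expressed, with STAT3 at 75, 73.1 and 53.4 FPKM and STAT6 at 35.4, 31.5 and 26.4 FPKM, and no 2 neighbours in the family's order overlapped.

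Other cytokine and chemokine genes were more selective. IL18 (chr11:112143251-112164117) was the 1 expressed ligand of 10 in the interleukin 1 family, at 29.8, 27.7 and 23.8 FPKM, with IL1A and IL1B below detection. The neutrophil chemokines CXCL8 at 60.3, 87.7 and 51.4 FPKM, CXCL2 at 52.2 ± 9.5 FPKM and CXCL1 at 15.5 ± 3.41 FPKM were high, and CSF1 was at 19.3 ± 2.49 FPKM. Of the 19 chemokine receptors CXCR4 at 1.87, 5.02 and 1.5 FPKM and CCR10 at 1.36 ± 0.181 FPKM were expressed, and CXCR4 was highest in control replicate 2. Receptors of type I and type II interferon were expressed at 23.3 to 34.1 FPKM (IFNAR1, IFNAR2, IFNGR1 and IFNGR2). In the TNF receptor family 15 of 24 were expressed, led by the TWEAK receptor TNFRSF12A at 96.2 ± 10.6 FPKM, TNFRSF1A at 72.6 ± 8.65 FPKM, the TRAIL receptor TNFRSF10B at 65 ± 9.37 FPKM and LTBR at 54.6 ± 8.17 FPKM, while FAS was at 7.33 ± 0.677 FPKM. Of the Toll-like receptors TLR6 alone was expressed, at 5.36 ± 0.512 FPKM, a gene that overlaps TLR1 on the same strand and shares sequence with it.

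The highest Wnt receptor, FZD6, lay above the Notch and Hedgehog receptors in each library. FZD6 at 44.8 ± 2.21 FPKM, LRP5 at 20.7 ± 2.25 FPKM, LGR4 at 19.7 ± 1.37 FPKM and LRP6 at 9.75 ± 0.833 FPKM led the Wnt receptors, and LGR5 was below detection. WNT7B was the main Wnt gene at 13.4 ± 1.85 FPKM, and WNT3 at 2.41 ± 0.312 FPKM and WNT2B at 1.26 ± 0.0956 FPKM were the other 2 of 19 that were expressed. NOTCH2 at 8.71 ± 1.12 FPKM lay above NOTCH3 at 2.85 ± 0.503 FPKM and NOTCH1 at 1.3 ± 0.174 FPKM, with NOTCH4 below detection and the ligand JAG2 at 9.02 ± 1.26 FPKM above JAG1 at 1.17 ± 0.165 FPKM. The Hedgehog genes SMO and PTCH1 were at 3.56 ± 0.348 FPKM and 1.78 ± 0.0705 FPKM. Of the 37 G protein-coupled receptors of a mixed list (lipid, purine, adrenergic, peptide, protease-activated, adhesion and orphan receptors) 16 were expressed, led by the orphan receptor GPRC5A at 52.5 ± 6.17 FPKM, the adhesion receptor ADGRE5 at 32.5 ± 4.28 FPKM, the protease-activated receptor F2RL1 at 24.1 ± 5.75 FPKM and the orphan receptor GPRC5C at 13 ± 0.544 FPKM. P2RY11 was listed at 11, 0 and 0 FPKM, where a read-through gene with PPAN covers it, and is not read.

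Of the steroid receptors only the glucocorticoid receptor was expressed. NR3C1 was at 28.3, 33.7 and 25.2 FPKM and made up 97.2% ± 0.321 of the sum of the 6 steroid receptors. The mineralocorticoid receptor NR3C2 was at 0.405 ± 0.056 FPKM and the oestrogen receptors ESR1 and ESR2 at 0.212 ± 0.0229 FPKM and 0.212 ± 0.0431 FPKM, each under 1 FPKM in every library, while the progesterone receptor PGR was below detection. Over all 48 nuclear receptors 25 were expressed and 10 were high. Outside the steroid class the highest were the fatty acid receptor PPARD at 26.2 ± 3.31 FPKM, the oxysterol receptor NR1H2 at 20.3 ± 2.61 FPKM and the clock gene NR1D2 at 18.2 ± 3.98 FPKM. Of the enzymes that make or convert steroids 5 of 18 were expressed, with HSD17B4 at 57.9 ± 2.93 FPKM, the 5-alpha-reductases SRD5A1 and SRD5A3 at 9.91 ± 0.766 FPKM and 5.66 ± 0.193 FPKM and HSD17B1 at 4.23 ± 0.368 FPKM. SRD5A2, CYP17A1 and CYP19A1 were below detection, and HSD3B1, HSD3B2, HSD17B3 and CYP11A1 were listed at 0.

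Among transcription factors the HOX genes, which record position along the body axis, were low throughout, with 13 of 39 expressed and none at 10 FPKM in each library. HOXB7 was the highest at 9.16, 7.89 and 8.23 FPKM, followed by HOXB9 at 7.91, 8.51 and 5.48 FPKM and HOXB6 at 7.78, 5.86 and 6.93 FPKM. In the HOXA cluster HOXA10 and HOXA3 were at 5.29 ± 0.648 FPKM and 4.87 ± 0.676 FPKM, and in the HOXC cluster HOXC10 was at 4.92 ± 0.559 FPKM. No gene of the HOXD cluster (chr2:176092891-176190907) was expressed, HOXD9 being the highest at 1.09, 0.882 and 1.43 FPKM. Without control replicate 2, HOXD9 would have counted as expressed. Many HOX genes overlap on 1 strand in the annotation, so their split is uncertain.

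Several other factor families had 1 or 2 main members, whereas the SOX and KLF families were more spread. FOXA1 made up 96.9% ± 0.257 of the FOXA family, with FOXA2 at 0.405 ± 0.0809 FPKM and FOXA3 at 0.104 ± 0.065 FPKM. MYC made up 97.6% ± 0.565 of its family, with MYCL at 0.768 ± 0.133 FPKM and MYCN listed at 0. The hypoxia-inducible factor HIF1A was at 129.5, 127 and 109.8 FPKM and EPAS1 at 21.9 ± 3.01 FPKM, and HIF3A was below detection. TEAD1, the DNA-binding partner of YAP, was at 37.3 ± 3.39 FPKM, TEAD4 at 10.9 ± 2.08 FPKM, TEAD2 at 5.45 ± 0.376 FPKM and TEAD3 at 3.65 ± 0.198 FPKM. FOXO3 at 9.36 ± 2.17 FPKM lay above FOXO4 at 2.42 ± 0.0818 FPKM and FOXO1 at 1.29 ± 0.141 FPKM, and FOXO6 was at 0.375 ± 0.0711 FPKM. GATA2 and GATA6 were at 2.9 ± 0.0362 FPKM and 1.87 ± 0.17 FPKM, GATA4 at 0.345 ± 0.040 FPKM and GATA1, GATA3 and GATA5 were below detection. Of 19 SOX genes SOX12 at 8.77 ± 0.39 FPKM, SOX4 at 4.23 ± 0.801 FPKM, SOX9 at 3.05 ± 0.968 FPKM, SOX15 at 2.92 ± 0.258 FPKM and SOX13 at 2.62 ± 0.302 FPKM were expressed. In the KLF family 11 of 17 genes were expressed, led by KLF6 at 47.2 ± 8.22 FPKM and KLF5 at 17.7 ± 2.93 FPKM.

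Of 49 gene families 30 had a leading member with over 50% of the family's summed FPKM, and 6 had one with over 90%. In 38 the leading member was separated from the next. These counts depend on family size, which ran from 2 members (pyruvate kinases) to 23 (testis antigens). In a family of 2 the higher member always holds at least 50%. The counts also include cyclooxygenases and lipoxygenases, of which none was expressed. The leading member was the same in each library in 44 families. In glycolysis PKM, ALDOA and ENO1 were the forms used, ALDOA at 776 ± 131 FPKM against 1.59 ± 0.246 FPKM for ALDOC. ENO1 made up 96.2% ± 0.409 of the enolases, with ENO2 at 45.4 ± 10.1 FPKM, ENO3 at 5.83 ± 0.223 FPKM and ENO4 at 0.356 ± 0.0536 FPKM, and the liver form PKLR was at 0.102 ± 0.0273 FPKM. LDHA was at 775, 1019.8 and 825 FPKM and LDHB at 384, 393 and 393 FPKM, and LDHA was highest in control replicate 2. The phosphofructokinases PFKP, PFKL and PFKM were all high, at 103 ± 13.7 FPKM, 35.4 ± 5.86 FPKM and 28 ± 3.06 FPKM. HK1 was the main hexokinase at 57.2, 53.5 and 44.2 FPKM, and HK2 at 18.3, 33.6 and 14.9 FPKM was highest in control replicate 2, and HK1's share of the hexokinases was 74.7, 60.6 and 73.5%. HKDC1 was at 1.11 ± 0.0528 FPKM and HK3 was below detection. Of the glucose transporters SLC2A1 was the highest at 72.1 ± 17 FPKM, with SLC2A6 next at 9.8 ± 0.55 FPKM and the muscle and fat form SLC2A4 at 0.241 ± 0.0549 FPKM. Of the lactate carriers the highest were SLC16A3 at 81 ± 5.42 FPKM and SLC16A1 at 34 ± 3.87 FPKM, and SLC16A8 and SLC16A7 were at 0.462 ± 0.0937 FPKM and 0.273 ± 0.0488 FPKM.

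The 4 highest keratins were those of simple epithelia. KRT7 (chr12:52232520-52252186), whose span overlaps that of KRT86, was at 187, 191 and 139 FPKM, KRT8 at 170.3, 141 and 126 FPKM, KRT18 at 136, 137 and 108 FPKM and KRT19 at 121, 126 and 98.6 FPKM. Each of these 4 overlapped the next in the order, and KRT8 and KRT18 form the filament pair of simple epithelia. KRT80 at 38 ± 7.16 FPKM, KRT10 at 12.3 ± 2.35 FPKM and KRT15 at 1.98 ± 0.719 FPKM, the latter 2 keratins of stratified epithelia, were the others expressed. The stratified and wound keratins KRT1, KRT5, KRT6A, KRT6B, KRT6C, KRT13, KRT14, KRT16 and KRT17 were below detection. Of 9 classical cadherins CDH1 and P-cadherin (CDH3, 36.7 ± 5.75 FPKM) were expressed and the other 7 were below detection. Integrins were led by ITGB1 at 625, 644 and 535 FPKM, 92.7% ± 0.051 of the beta chains, and by ITGA3 at 179.9, 172 and 144 FPKM, 55.1% ± 1.27 of the alpha chains. ITGA6, ITGA5, ITGA2 and ITGAV were at 35 ± 1.22 FPKM, 33.4 ± 4.39 FPKM, 28.4 ± 3.16 FPKM and 26.6 ± 3.08 FPKM. Both cytoplasmic actins were used, ACTB at 1136, 1112 and 768 FPKM and ACTG1 at 908, 1077 and 703 FPKM, with overlapping values, and ACTC1 was at 0.818 ± 0.169 FPKM, ACTA1 below detection and ACTG2 listed at 0. The tubulin genes TUBA1B at 570.5 ± 74.3 FPKM and TUBB at 434 ± 51.5 FPKM led, and 42.2% of the 75-base windows of TUBA1B also occur in other alpha tubulins, so that split is uncertain.

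**Figure D4:**
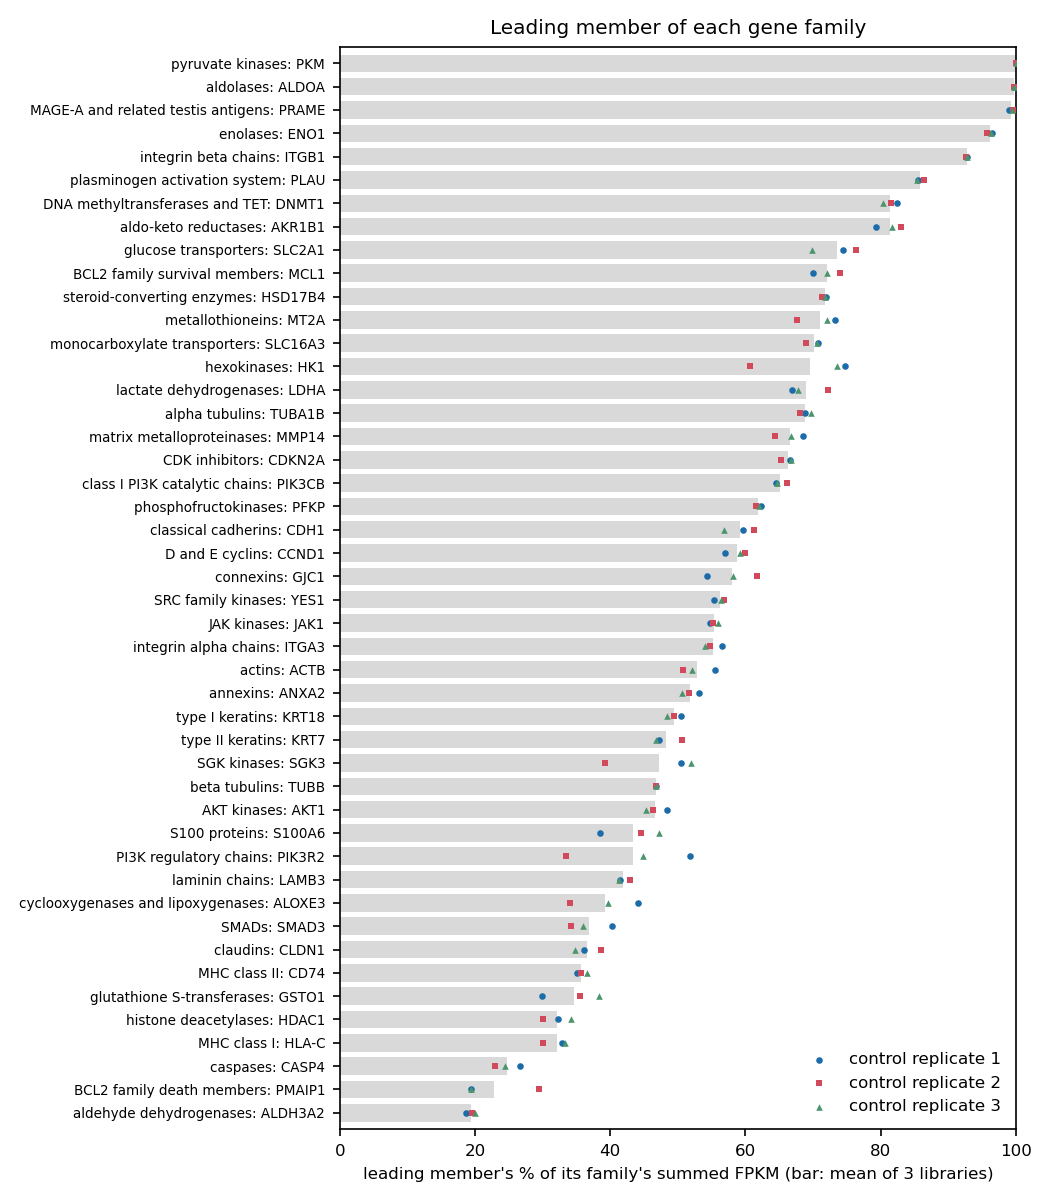
Percent of a family's summed FPKM held by its leading member (x axis) for 46 gene families (y axis, family and leading gene); bars are means of the 3 libraries and points are control replicates 1 (circles), 2 (squares) and 3 (triangles). Pyruvate kinases, aldolases, enolases and integrin beta chains each have 1 member above 90%, testis antigens are led by PRAME with the rest near 0, and hexokinases, SGK kinases, PI3K regulatory chains and BCL2 family death members show the control replicate 2 point apart from the others.

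Survival, protease and detoxification families differed in how clearly 1 member led. Of the BCL2 survival members MCL1 at 201, 229 and 186 FPKM and BCL2L1 (BCL-XL) at 72.3, 66.7 and 59.4 FPKM were high, BCL2A1 and BCL2L2 were at 7.43 ± 0.415 FPKM and 5.79 ± 0.0873 FPKM, and BCL2 itself was at 0.159 ± 0.024 FPKM. BCL2L2 overlaps a read-through gene and is uncertain. The death members PMAIP1 (NOXA) at 24.6, 41.9 and 22.2 FPKM and BID at 27.6 ± 3.49 FPKM led, and PMAIP1 was highest in control replicate 2. BAX at 16.7 ± 1.33 FPKM and BAK1 at 9.52 ± 0.322 FPKM, the pore-forming pair, were both expressed. Caspase 4 (CASP4) at 20.9 ± 2.41 FPKM and caspase 8 (CASP8) at 20.4 ± 0.175 FPKM overlapped, and caspase 1 (CASP1) was below detection. The urokinase gene PLAU (chr10:73909177-73917497) was very high at 331, 335 and 247 FPKM and its receptor PLAUR was at 40.6 ± 6.06 FPKM. MMP14, a membrane metalloproteinase, was at 50.8 ± 7.37 FPKM, while MMP9 was at 0.118 ± 0.0214 FPKM, MMP1 at 0.0883 ± 0.0134 FPKM and MMP2 and MMP7 were listed at 0. AKR1B1 at 231 ± 26.2 FPKM, MT2A at 685 ± 87.6 FPKM and GSTO1 at 71.4 ± 5.26 FPKM led their families, and GSTP1, which prostate tumours often silence, was at 48.5, 38.2 and 36.6 FPKM. ALDH1A1, a stem cell marker, was listed at 0, and ALDH1A3 was at 8.29 ± 0.418 FPKM. Neither cyclooxygenase was expressed, with PTGS2 at 0.111, 0.47 and 0.161 FPKM and PTGS1 below detection. DNMT1 was at 52.6 ± 6.34 FPKM and the de novo methyltransferases DNMT3A and DNMT3B were at 3.54 ± 0.063 FPKM and 1.55 ± 0.0943 FPKM.

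Annexins and S100 genes were among the abundant families, and claudins and connexins were lower. Annexins bind phospholipids in the presence of calcium, and 9 of 12 were expressed, with ANXA2 at 873, 887 and 728 FPKM, ANXA1 at 299 ± 36.3 FPKM, ANXA5 at 206 ± 6.97 FPKM and ANXA3 at 103 ± 8.61 FPKM. Of the S100 proteins, small calcium sensors, 10 of 17 were expressed, led by S100A6 at 804 ± 114 FPKM, the ANXA2 partner S100A10 at 465, 441 and 442 FPKM, the ANXA1 partner S100A11 at 353 ± 19.2 FPKM and S100A16 at 143 ± 11.3 FPKM. S100A9 was at 19 ± 3.36 FPKM although S100A8, with which it pairs in neutrophils, was at 0.293 ± 0.264 FPKM. Beyond CLDN1 the claudins of tight junctions were CLDN12 at 40.4 ± 6.31 FPKM, CLDN4 at 16.6 ± 2.16 FPKM and CLDN3 at 14.4 ± 1.16 FPKM, with 8 of 21 expressed. The main connexin of gap junctions was GJC1 at 16.3 ± 1.45 FPKM, with GJD3 and GJB2 at 1.97 ± 0.0968 FPKM and 1.53 ± 0.149 FPKM, while GJA1, the connexin found most widely, was at 0.649, 0.555 and 0.54 FPKM. Other laminin chains were LAMC1 at 57.5 ± 7.05 FPKM, LAMA5 at 38.8 ± 6.51 FPKM, LAMB2 at 20.8 ± 3.9 FPKM and LAMB1 at 12.7 ± 1.65 FPKM.

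Signal mediators and chromatin enzymes were broadly expressed. Of the SMAD proteins, which carry TGF-beta signals to the nucleus, 7 of 8 were expressed, with SMAD3 at 30.1, 27.9 and 23.7 FPKM, SMAD2 at 12.9 ± 2.29 FPKM, SMAD1 at 11.4 ± 1.26 FPKM and SMAD5 at 10.4 ± 1.1 FPKM. The shared partner SMAD4 was at 8.17 ± 1.11 FPKM. The E2F factors, which RB proteins bind, were all expressed, with E2F4 at 28.7 ± 3.71 FPKM, E2F1 at 17.3 ± 1.12 FPKM, E2F6 at 15.3 ± 0.818 FPKM and E2F3 at 8.1 ± 0.738 FPKM. HDAC1 at 42.1 ± 1.87 FPKM, HDAC3 at 30.3 ± 3.07 FPKM, HDAC2 at 13.4 ± 0.762 FPKM and HDAC7 at 11.6 ± 1.61 FPKM led the histone deacetylases, of which 10 of 11 were expressed. Of the demethylating TET enzymes TET2 and TET3 were at 3.79 ± 0.514 FPKM and 2.67 ± 0.172 FPKM, and TET1 was at 0.377 ± 0.0846 FPKM. Among PAX genes PAX9 at 2.2 ± 0.178 FPKM and PAX6 at 1.88 ± 0.239 FPKM were expressed. The retinoid, thyroid and vitamin D receptors were led by RARG at 13 ± 1.25 FPKM, RXRB at 10.7 ± 1.21 FPKM, RARA at 7.96 ± 1.2 FPKM and RXRA at 7.41 ± 0.803 FPKM, and the vitamin D receptor VDR was at 3.67, 3.9 and 3.45 FPKM. Of the receptors for interleukins 4 and 13, IL13RA1 and IL4R were at 25.5 ± 0.983 FPKM and 15.1 ± 1.84 FPKM, whereas the common chain IL2RG was listed at 0. The orphan receptors ESRRA and NR4A1 were at 15.6 ± 0.928 FPKM and 15.6, 19.4 and 11.7 FPKM.

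Class I genes of antigen presentation were expressed, and class II genes were low. HLA-C and HLA-B were at 111, 111 and 97.6 FPKM and 89.6, 105 and 77 FPKM, with values that overlapped, HLA-E was at 35.1 ± 3.39 FPKM, HLA-F at 9.17 ± 1.01 FPKM and HLA-G was listed at 0. These loci vary between genomes and share sequence, so the split between them is uncertain. Of the class II list 5 of 12 were expressed, led by the invariant chain CD74 at 5.96 ± 0.401 FPKM. HLA-DRA at 0.526 ± 0.109 FPKM and the activator CIITA at 0.241 ± 0.0475 FPKM were not. Of 23 cancer-testis genes PRAME alone was expressed, at 9.28, 8.38 and 6.33 FPKM, and 18 were listed at 0.

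Control replicate 2 stood apart in stress-responsive genes. Among the genes with the largest CV at a mean of 5 FPKM or more were the heat shock genes HSPA6, HSPA1B and HSPA1A, FOS of the immediate early response and the peptide hormone gene ADM, which hypoxia induces. HSPA6 was at 0.877, 16.4 and 1.29 FPKM, HSPA1A (chr6:31815464-31817946) at 34.7, 102 and 30.1 FPKM and HSPA1B (chr6:31827735-31830255) at 33.2, 110.3 and 31.5 FPKM. HSPA1A and HSPA1B share 71.2% of the 75-base windows of HSPA1A, so they count as 1 measurement. FOS was at 3.8, 13.7 and 2.61 FPKM and ADM at 5.86, 17.2 and 4.13 FPKM. In all 5 the highest value was that of control replicate 2, and control replicates 1 and 3 were both below it. The other genes of the top 10 were RPS29 at 84.7, 181 and 425 FPKM, highest in control replicate 3, the read-through gene SENP3-EIF4A1 at 7.18, 53.8 and 12.6 FPKM and the clone-named AC104109.3 at 0.0431, 16.2 and 0.371 FPKM, AC005192.1 at 4.93, 0.789 and 13.5 FPKM and AC118553.2 at 0.224, 5.88 and 10.4 FPKM, which are uncertain.

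A set of 4 stress lists, written after such values were seen, were used to describe the extent. Over all 11374 expressed genes 45.8% had their highest value in control replicate 2 and 0.659% were there over 1.5 times both other values. Of the 13 expressed heat shock genes, with HSPA1A and HSPA1B listed separately, 11 were highest in control replicate 2, 3 of them (HSPA1A, HSPA1B and DNAJB1) over 1.5 times, of the 13 immediate early genes 12 and 6, of the 12 targets of ATF4, the factor of amino acid and endoplasmic reticulum stress, 12 and 7, and of the 13 hypoxia genes 12 and 6. ATF3, at 23.8, 44 and 16.6 FPKM, is in both the immediate early and the ATF4 list and counts in each, so those lists are not separate. The median ratio of control replicate 2 to the mean of the other 2 was 1.24, 1.48, 1.78 and 1.64 for the 4 lists in turn. Over expressed genes with a known length it was 1.06. Examples were the cochaperone DNAJB1 at 56.3, 122 and 50.7 FPKM, DDIT3 (CHOP) at 26.9, 66 and 21.6 FPKM, DDIT4 at 70.1, 149 and 55.7 FPKM, CHAC1 at 23.2, 40.6 and 16.6 FPKM and NDRG1 at 186, 299.8 and 134 FPKM. Other stress genes differed less between libraries, and HSPD1 was at 255, 279 and 248 FPKM, IER3 at 141, 147 and 118 FPKM, VLDLR at 16.8, 18.2 and 17.1 FPKM and PDK1 at 8.75, 7.45 and 5.82 FPKM. The hypoxia marker CA9 was listed at 0 in each library. Control replicate 2 also had the lowest share of mitochondrial genes, 11.2% of the summed FPKM, and its part in the result was not tested.

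**Figure D5:**
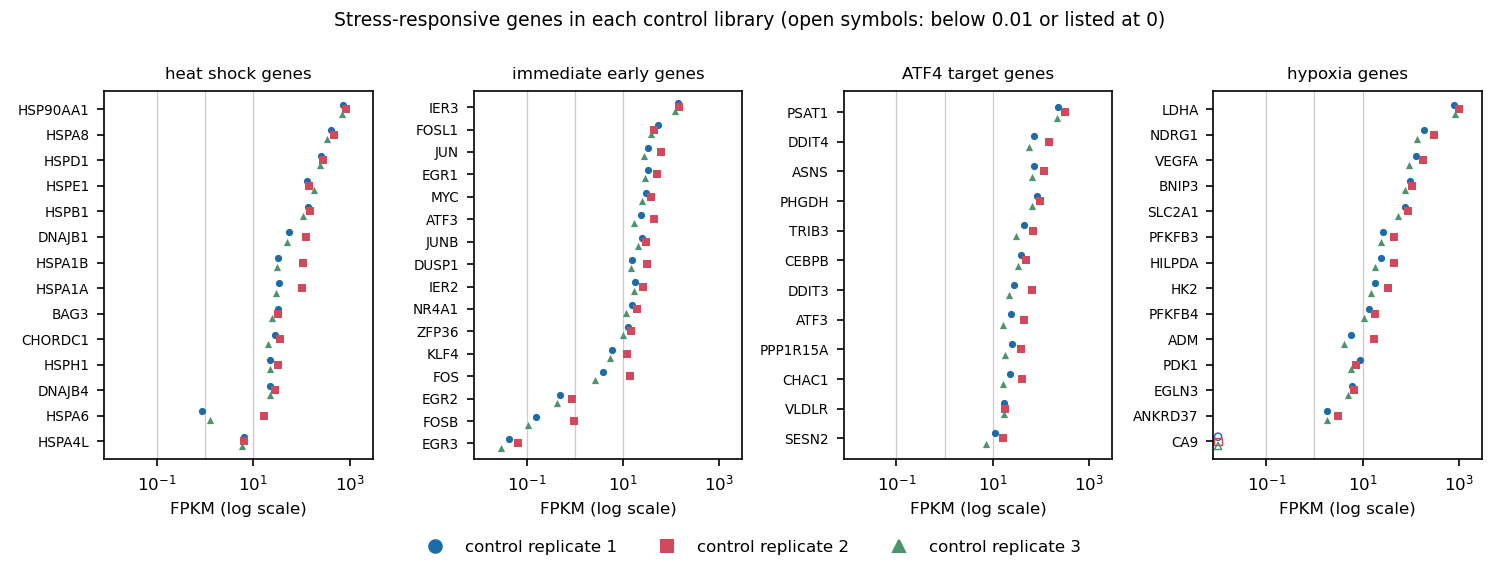
FPKM on a log scale (x axis) of 4 lists of stress-responsive genes (y axis, by mean level) in control replicates 1 (circles), 2 (squares) and 3 (triangles); open symbols are values under 0.01 FPKM or listed at 0 and grey lines mark 0.1, 1 and 10 FPKM. The squares lie to the right of the circles and triangles for HSPA6, HSPA1A, HSPA1B, DNAJB1, FOS, FOSB, DDIT3, DDIT4, ADM and HK2, and near them for HSPD1, VLDLR and PDK1.

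The promoters of HSPA1A, HSPA1B and HSPA6 are shown because these genes had the largest ratios of control replicate 2 to the mean of the other libraries in the heat shock list, with matches to GAANNTTC or TTCNNGAA, the inverted pairs of the heat shock element, in capitals. Both letter strings read the same on either strand. The windows are RefSeq promoters of GRCh38.p14 on the plus strand, at chr6:31815293-31815592, chr6:31827488-31827787 and chr1:161524290-161524589.
HSPA1A: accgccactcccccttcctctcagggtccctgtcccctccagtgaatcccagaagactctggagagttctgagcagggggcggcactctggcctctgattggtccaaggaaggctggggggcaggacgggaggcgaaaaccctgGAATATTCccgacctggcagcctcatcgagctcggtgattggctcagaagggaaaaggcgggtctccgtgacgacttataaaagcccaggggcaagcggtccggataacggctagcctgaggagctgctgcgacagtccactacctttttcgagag
HSPA1B: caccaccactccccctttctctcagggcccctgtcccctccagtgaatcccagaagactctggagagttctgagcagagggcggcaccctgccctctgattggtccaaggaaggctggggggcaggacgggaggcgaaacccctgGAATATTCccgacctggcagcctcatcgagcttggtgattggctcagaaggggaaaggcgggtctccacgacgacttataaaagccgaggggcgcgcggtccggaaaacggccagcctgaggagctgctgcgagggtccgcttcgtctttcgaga
HSPA6: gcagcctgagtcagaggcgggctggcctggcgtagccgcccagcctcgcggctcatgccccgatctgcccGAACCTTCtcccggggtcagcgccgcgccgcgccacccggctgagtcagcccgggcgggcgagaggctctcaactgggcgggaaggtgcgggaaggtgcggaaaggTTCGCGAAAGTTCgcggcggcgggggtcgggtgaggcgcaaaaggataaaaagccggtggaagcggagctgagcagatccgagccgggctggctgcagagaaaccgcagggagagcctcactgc
HSPA1A and HSPA1B each held 1 match to GAANNTTC and none to TTCNNGAA, and their windows had 277 identical aligned bases. HSPA6 held 2 matches to GAANNTTC and 1 to TTCNNGAA, 2 of which overlap. GAANNTTC was present in 7.04% and TTCNNGAA in 7.95% of all single RefSeq windows. Other heat shock genes with a window held from none to several matches, with ratios below those of the 3 shown. CHORDC1 held 3 and 3 matches to GAANNTTC and TTCNNGAA, and HSPA8 2 and 2, with ratios of 1.48 and 1.26, and HSPB1 held 1 match to GAANNTTC with a ratio of 1.22. HSPH1, BAG3 and HSPE1 held no match to either string, with ratios of 1.46, 1.19 and 0.911. A match describes letters only and does not show binding.

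The other libraries had features of their own. After quantile normalization, which gives the 3 libraries the same distribution, 20, 62 and 53 expressed genes were over 1.5 times both other values in control replicates 1, 2 and 3, against 32, 75 and 30 as deposited. Control replicate 1 listed 4640 identifiers at 0, against 4053 and 3997, and the 5th percentile of its values above 0 was 0.0405 FPKM against 0.0238 and 0.0225 FPKM. In control replicate 3 the short transcripts were relatively higher, with a median ratio to the mean of the other 2 libraries of 1.02 over 130 expressed genes under 750 bases (longest coding transcript) against 0.873 over 4556 genes of 4000 bases or more. S100A6, a small calcium-binding protein, was at 681, 823 and 907 FPKM, RPS27 at 662, 614 and 928 FPKM and MT-ATP8 at 5179, 2393 and 6258 FPKM, all highest in that library. The part of transcript length in these values was not tested.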

How the data were processed

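RNA-seq of 3 control libraries was analysed from gene-level values as deposited, taken as FPKM. The submitters' processing notes name HISAT2 2.2.0, StringTie 2.1.2 and GRCh38, without roles. The files of the taraxasterol libraries were not used here, and some genes of the lists are not reported here. The unit was taken from the values, whose sums (322483 to 363724) differ from 1000000. The authors' value column carries no unit name, and TPM with identifiers left out cannot be wholly told apart. Counts and depth were not given, so no count model or interval was used, and no group comparison or test was made. Means, SDs and CVs were computed with Python 3.11.15, pandas 2.3.3 and numpy 2.4.6 from unfiltered values, with a pseudocount of 1 only for correlations. The classes were checked on simulated data. Genes were placed by name with GENCODE 29 and RefSeq windows (15173 of 19932 names matched). The 120 gene lists hold 1201 genes of the table, of which 589 were expressed, and 5 listed genes were not found by name. The choice of the controls as a subject, the gene lists and the thresholds, with the stress lists and groups defined by gene name last, were chosen with earlier results of these data known. Named genes are the defining markers, the 4 highest genes of a list, families of up to 6 members, the reference genes, the 20 highest genes and the 10 with the largest CV at a mean of 5 FPKM or more (chosen in part with values in view), with a few more genes picked once their levels were known. Longest coding transcripts were compared by shared 75-base windows, and 71 of 986 family members shared over 1% of them. Alternatives were other thresholds, normalizations and leaving out each library.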

Additional observations from a re-analysis of the deposited data

How the results depend on the processing

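The number of expressed genes was 11374, and it ran from 10239 at a threshold of 2 FPKM to 12564 after rescaling to TPM. Leaving out 1 library gave 11407 to 11480, and the genes below detection ran from 4883 at 0.05 FPKM to 6299 at 0.2 FPKM. The share of the 100 highest genes, 29%, was 17.7% without mitochondrial and ribosomal protein genes, which hold 40 of those 100, and 28.1 to 30.04% without 1 library. The median CV, 9.68%, was 5.49 to 9.59% without 1 library, lowest without control replicate 3, and 6.97% after quantile normalization. The listed genes expressed ranged from 514 to 648 over the settings, against 589. By list, the count moved in 17 of 120 lists at 2 FPKM, 9 at 0.5 FPKM, 3 with the mean and 2 without control replicate 2, a count moving where it changed by over 1.5 times or from 0. Quantile normalization, chosen for the stress lists after seeing the data, left their median ratios at 1.16 to 1.68. The leading family member stayed the same in at least 48 of 49 families under each alternative run. No paired analysis was possible because no groups were compared. Depth is unknown, so values below 0.1 FPKM cannot be told from absence.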

Other observations

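Gene groups defined by name, chosen after the values were seen, ran from wholly expressed to without an expressed member, with others in between. All 78 mitochondrial ribosomal protein genes were expressed, from MRPL35 at 6.06 ± 0.994 FPKM to MRPL9 at 65.9 ± 1.4 FPKM, as were all 37 genes of respiratory complex I, all 12 RNA polymerase II subunits, all 12 spliceosomal snRNP proteins and all 41 translation initiation factors, so that no gene of these 5 groups was listed at 0. Of 40 proteasome genes 38 were expressed, and the other 2 were PSMA8 of the testis and PSMB11 of the thymus, both listed at 0. Zinc finger genes named ZNF were broadly used, 389 of 510, with a median of 2.5 FPKM.

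At the other end 324 of 390 olfactory receptor genes were listed at 0 and 1, OR2A7 at 1.37 ± 0.354 FPKM, was expressed. None of the 94 keratin-associated protein genes, 39 beta-defensins, 18 late cornified envelope genes or 21 interferon genes was expressed, although IFNE reached 0.954 ± 0.13 FPKM. All 19 UDP glucuronosyltransferase genes were listed at 0, and the members of the UGT1A locus share exons, so these zeros are uncertain. Of 55 cytochrome P450 genes 14 were expressed, led by CYP51A1 of cholesterol synthesis at 76.6 ± 9.41 FPKM, and of 97 potassium channel genes 17, led by KCNMA1 at 10.9 ± 1.67 FPKM.

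Over chromosomes 1 to 22 and X the share of protein-coding genes that were expressed ran from 42.5% on chromosome X to 64.3% on chromosome 16, and the share below detection from 18.5% on chromosome 22 to 45.1% on chromosome X. Copy number was not measured.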
